A study of Danio rerio with 39 samples.

Results

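The 150 zebrafish genes described here had a lower mean level in gamma-irradiated than in unexposed embryos at every one of 4 dose rates. They were chosen by the measured values themselves. Levels were taken as log2(CPM + 0.5), where CPM is the usual per-million scaling of counts by all reads assigned to genes, and 8603 of the 32057 genes in the files had a mean of 5 CPM or more over the 20 controls and a symbol that did not start with mt- or znf. For each dose rate the control mean was subtracted from the exposed mean, and the 150 genes whose largest (least negative) of the 4 differences was lowest were taken. All 4 contrasts therefore went into the choice, so that the differences are given as a description and carry no test. No test of exposure against control could be made outside them.

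Embryos of the AB strain were exposed to gamma rays from a 137Cs source from 1 h after fertilization and collected at 6 h, at the shield stage, as pools of 40 whole embryos. Each dose rate had its own batch with its own unexposed controls, so the 4 comparisons share no library. The 0.005 mGy/h batch held 3 exposed and 4 control libraries, the 0.05 mGy/h batch 4 of each, and the 0.5 and 5 mGy/h batches 6 of each. Dose rate and batch cannot be told apart.

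Zebrafish oocytes load the egg with RNA that runs the first cell cycles before the embryo transcribes its own genome, and these maternal RNAs are cleared in waves up to gastrulation. Many of them encode ordinary cell machinery (kinases, small GTPase regulators, membrane traffic, RNA binding proteins), alongside the better known oocyte genes. In whole-embryo RNA, a lower level of a gene may stand for fewer cells of a type, less RNA per cell or less RNA left from the egg, and these cannot be told apart here.

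Gene totals ran from 9845688 to 57169053 reads a library, and the 5 mGy/h controls were the shallowest group (median 13846841, against 30203517 in the 5 mGy/h exposed libraries). In 1 exposed library at 0.05 mGy/h, 35.7% of reads mapped to several places. The shield-stage markers tbxta (between 405 and 992 CPM) and chrd (between 301 and 823 CPM) were present in every library, and gsc was low (at most 3.95 CPM and at 0 in 1 library). Among genes of tissues absent at this stage, the hemoglobin gene hbae1.1 was at 0 in 38 of 39 libraries. Traces of others were more common: elavl3 was at 0 in 5 libraries, gfap in 14 and ins in 2 (at most 0.68, 0.23 and 0.83 CPM). Of the genes named myl1, ENSDARG00000014196 was at 0 in 25 libraries, while ENSDARG00000017441 lay between 1.76 and 5.87 CPM and was never at 0. No 2 libraries of a group differed by as little as sampling noise (chi-square per degree of freedom of at least 4.12 over 81 pairs).

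The largest of the 4 differences ranged from -0.41 for the first member to -0.15 for the last, and the median member differed by -0.36, -0.21, -0.24 and -0.30 on the log2 scale (0.005, 0.05, 0.5 and 5 mGy/h). Over all 8603 eligible genes the medians were -0.12, -0.01, 0.00 and -0.09 in the same order of dose rates. The members were thus lower by a modest amount, and a 1.5-fold decrease was reached by 13, 3, 5 and 6 of them from the lowest to the highest dose rate. The size did not follow the order of the dose rates. The lowest of the 4 differences fell at 0.005 mGy/h for 77 members, while 9 had it in the 0.05 mGy/h batch, 27 in the 0.5 mGy/h batch and 37 in the 5 mGy/h batch. The lower median eligible gene at 0.005 and 5 mGy/h bears on these counts, which were not taken for all eligible genes. With TMM scaling the lowest member median lay at 0.5 mGy/h (-0.29). Of the eligible genes, 1543 (17.9%) were lower and 368 (4.28%) were higher in all 4 batches on gene totals. This excess of lower genes depended on the scaling. Under TMM 882 were lower and 609 higher (8518 eligible genes), and under DESeq2 size factors 892 and 634 (8520 eligible genes). On gene totals, the 150 genes chosen in the opposite way, by the highest smallest difference, reached from 0.17 down to 0.04.

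At the limit of the rule, ahcyl2b and NXPE3, the last members, had a largest difference of -0.151 each. SLC17A9 and ppp1r3c2b, ranked 151 and 152, missed it with -0.151 and -0.151.

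CDC42BPA (ENSDARG00000016464), a kinase that acts downstream of the GTPase Cdc42, had the lowest largest difference. It stood at 1.66, 0.927 and 1.55 CPM in the exposed libraries at 0.005 mGy/h, against 2.13, 2.35, 2.03 and 2.28 CPM in the controls, and at 2.4, 1.89, 1.68 and 2.51 CPM in the exposed libraries at 0.05 mGy/h, against 5.1, 4.48, 1.67 and 2.68 CPM in the controls. At 0.5 mGy/h its lowest, median and highest values were 0.483, 5.53 and 14.3 CPM in exposed libraries and 3.95, 5.77 and 10.6 CPM in controls, and at 5 mGy/h they were 3.63, 9.79 and 14.1 CPM in exposed libraries and 8.19, 10.1 and 17.7 CPM in controls. Only at 0.005 mGy/h did the groups not overlap. At 0.5 mGy/h the medians lay close together, and without exposed replicate 6, the library at 0.483 CPM, the largest of the 4 differences became 0.0598, above 0.

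FYN (ENSDARG00000011370), a Src-family tyrosine kinase, followed the same course. Its exposed libraries held 0.287, 1.12 and 1.07 CPM at 0.005 mGy/h, against 1.29, 1.08, 0.967 and 1.3 CPM in the controls, and 2.69, 1.85, 2.03 and 1.45 CPM at 0.05 mGy/h, against 4.73, 6.49, 2.14 and 2.43 CPM. The lowest, median and highest values at 0.5 mGy/h were 1.24, 6.86 and 18.6 CPM in exposed libraries and 4.96, 7.59 and 14.5 CPM in controls; at 5 mGy/h they were 4.8, 12.1 and 18.2 CPM in exposed libraries and 9.84, 15.3 and 29.2 CPM in controls. The groups overlapped in all 4 batches, and leaving out exposed replicate 6 at 0.5 mGy/h turned its largest difference to 0.0505. The mean control level of FYN was 0.73 on the log2 scale in the 0.005 mGy/h batch and 4.06 in the 5 mGy/h batch. FYN passed the minimum of 5 CPM through the batches where it was higher, so these levels are a description.

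ALDH3A2 (ENSDARG00000074791), which encodes a fatty aldehyde dehydrogenase, had 0.946, 1.57 and 1.7 CPM in exposed libraries at 0.005 mGy/h, against 1.99, 2.35, 3.34 and 1.75 CPM in the controls. At 0.05 mGy/h it had 3.53, 3.12, 3.49 and 4.46 CPM in exposed libraries, against 7, 5.76, 4 and 4.26 CPM in controls. The lowest, median and highest values of this gene were 3.8, 7.51 and 10.4 CPM in exposed libraries, against 7.25, 9.04 and 12.6 CPM in controls, at 0.5 mGy/h, and 6.69, 9.38 and 15 CPM in exposed libraries, against 8.52, 13.5 and 17.6 CPM in controls, at 5 mGy/h. Its exposed libraries lay below all controls at 0.005 mGy/h and overlapped them in the other batches.

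Both genes that carry the symbol TSC1 were members, at ranks 6 and 41. TSC1 is a subunit of the tuberous sclerosis complex, an inhibitor of the growth kinase mTORC1. The first copy (ENSDARG00000026048) had 2.38, 3.68 and 3.99 CPM in exposed libraries at 0.005 mGy/h, against 4.23, 4.58, 3.87 and 5.5 CPM in the controls, and 4.67, 3.75, 4.11 and 7.67 CPM in exposed libraries at 0.05 mGy/h, against 9.47, 8.55, 3.75 and 5.45 CPM in the controls. Its lowest, median and highest values were 4.83, 11.5 and 23.3 CPM in exposed libraries, against 11.4, 13.1 and 19.6 CPM in controls, at 0.5 mGy/h, and 9.61, 19.6 and 23.4 CPM in exposed libraries, against 13.2, 22.9 and 26.1 CPM in controls, at 5 mGy/h. These groups overlapped in every batch. In the second copy (ENSDARG00000057918) the exposed libraries at 0.005 mGy/h held 7.63, 6.75 and 7.24 CPM, all below the controls at 8.79, 9.79, 9.38 and 8.96 CPM, and the 4 differences were -0.34, -0.21, -0.29 and -0.24 from the lowest to the highest dose rate.

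A gene known from the oocytes of the frog Xenopus, 42sp43 (ENSDARG00000104170), encodes a protein that binds stored 5S RNA. It had 2.55, 2.3 and 3.4 CPM in exposed libraries at 0.005 mGy/h, against 3.79, 3.18, 2.95 and 4.07 CPM in the controls, and 2.62, 2.32, 1.72 and 2.57 CPM in exposed libraries at 0.05 mGy/h, against 5.07, 4.31, 2.05 and 2.94 CPM. At 0.5 mGy/h its lowest, median and highest values were 3.87, 9.25 and 19.8 CPM in exposed libraries and 7.85, 11.9 and 17.5 CPM in controls, and at 5 mGy/h they were 9.37, 16 and 18.8 CPM in exposed libraries and 11.4, 20.7 and 29.3 CPM in controls. Medians were lower with exposure in both of these batches while the ranges overlapped.

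Of the other members among the first 12 named, phactr1 (ENSDARG00000023916), a regulator of actin and of protein phosphatase, had 2.61, 2.24 and 1.66 CPM in exposed libraries at 0.005 mGy/h, against 2.24, 3.37, 3.29 and 2.69 CPM in controls, and 1.31, 1.19, 1.46 and 1.95 CPM in exposed libraries at 0.05 mGy/h, against 1.97, 2.35, 1.64 and 2.34 CPM in controls. Its lowest, median and highest values were 0.829, 3.4 and 9.41 CPM in exposed libraries, against 3.61, 5.5 and 9.18 CPM in controls, at 0.5 mGy/h, and 3.38, 6.17 and 7.41 CPM in exposed libraries, against 4.59, 7.4 and 9.62 CPM in controls, at 5 mGy/h. The groups of phactr1 overlapped in every batch. TAOK3 (ENSDARG00000060751), a kinase of the MAP kinase kinase kinase class, had 1.26, 1.31 and 1.07 CPM in exposed libraries at 0.005 mGy/h, all below the controls at 1.95, 1.78, 1.6 and 1.59 CPM, and 2.03, 1.55, 2.74 and 2.1 CPM in exposed libraries at 0.05 mGy/h, against 4.53, 3.68, 1.36 and 2.57 CPM. At the 2 higher dose rates the lowest, median and highest values of TAOK3 were 2.49, 7.57 and 15.9 CPM in exposed libraries against 4.87, 8.3 and 14.9 CPM in controls (0.5 mGy/h), and 6.42, 11.1 and 15.098 CPM against 8.04, 13.1 and 21.9 CPM (5 mGy/h). Those groups overlapped.

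A chaperone of lipid-modified proteins, unc119a2 (ENSDARG00000044362), had 0.401, 1.53 and 1.37 CPM in exposed libraries at 0.005 mGy/h, against 1.88, 1.46, 1.74 and 1.47 CPM in controls, and 2.2, 1.57, 1.28 and 2.07 CPM in exposed libraries at 0.05 mGy/h, against 3, 3.2, 1.61 and 1.84 CPM in controls. Its lowest, median and highest values were 1.04, 4.37 and 10.7 CPM in exposed libraries, against 3.52, 6.55 and 10.7 CPM in controls, at 0.5 mGy/h, and 3.84, 9.54 and 11.7 CPM in exposed libraries, against 6.74, 10.2 and 19.6 CPM in controls, at 5 mGy/h. The groups of unc119a2 overlapped in every batch. MGAT4A (ENSDARG00000063330), which adds a branch to N-glycans, had 2.64, 2.11 and 3.77 CPM in exposed libraries at 0.005 mGy/h, against 3.71, 5.59, 3.72 and 4.6 CPM in controls, and 5.07, 4.75, 4.72 and 7.71 CPM in exposed libraries at 0.05 mGy/h, against 11.1, 9.8, 5.75 and 5.56 CPM in controls. Its lowest, median and highest values were 3.94, 10.1 and 23.6 CPM in exposed libraries, against 10.3, 12.3 and 15.9 CPM in controls, at 0.5 mGy/h, and 11.5, 17.5 and 25 CPM in exposed libraries, against 14.7, 23.9 and 30.7 CPM in controls, at 5 mGy/h. Here too the ranges overlapped, although 3 of the 4 exposed libraries at 0.05 mGy/h lay below all controls.

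RNPEPL1 (ENSDARG00000007813), an aminopeptidase, had 3.07, 3.49 and 4.43 CPM in exposed libraries at 0.005 mGy/h, all below the controls at 5.96, 4.48, 5.03 and 5.29 CPM. At 0.05 mGy/h it had 6.44, 6.87, 6.67 and 6.07 CPM in exposed libraries, between the control values of 11.9, 12.7, 5.52 and 5.25 CPM, and its lowest, median and highest values were 5.39, 14.8 and 35.7 CPM in exposed libraries, against 12.3, 15.9 and 26.8 CPM in controls, at 0.5 mGy/h, and 11.4, 27 and 34.5 CPM in exposed libraries, against 18.1, 29.1 and 42 CPM in controls, at 5 mGy/h. The even exposed values at 0.05 mGy/h thus lay above 2 controls and below the other 2. The splicing-related gene rsrc1 (ENSDARG00000033987) was the most abundant of the 12, with 28, 26.3 and 22.5 CPM in exposed libraries at 0.005 mGy/h, against 22.9, 39, 40.9 and 38.6 CPM in controls, and 16.5, 16.1, 20 and 28.6 CPM in exposed libraries at 0.05 mGy/h, against 26.8, 21.3, 27 and 21.5 CPM in controls. Its lowest, median and highest values were 18.8, 20.5 and 26.4 CPM in exposed libraries, against 21, 27.4 and 32.4 CPM in controls, at 0.5 mGy/h, and 16, 19.4 and 21.4 CPM in exposed libraries, against 18.2, 23.5 and 28.6 CPM in controls, at 5 mGy/h. In rsrc1 a single library made the overlap at 0.005 mGy/h (control replicate 1) and at 0.05 mGy/h (exposed replicate 4). CD82 (ENSDARG00000026070), a tetraspanin of the cell surface, had 3.64, 2.65 and 3.99 CPM in exposed libraries at 0.005 mGy/h, against 3.94, 4.64, 3.92 and 4.32 CPM in controls. It had 7.8, 6.89, 6.4 and 7.33 CPM in exposed libraries at 0.05 mGy/h, again between 2 high (14.4 and 12.9 CPM) and 2 low controls (5.14 and 5.76 CPM), and its lowest, median and highest values at 5 mGy/h were 12.5, 22.3 and 36.5 CPM in exposed libraries against 19.1, 35 and 52.3 CPM in controls. In the 0.5 mGy/h batch they were 4.21, 15.05 and 34.9 CPM in exposed libraries and 11.9, 18.1 and 27.3 CPM in controls, and the groups of CD82 overlapped in every batch.

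**Figure D1:**
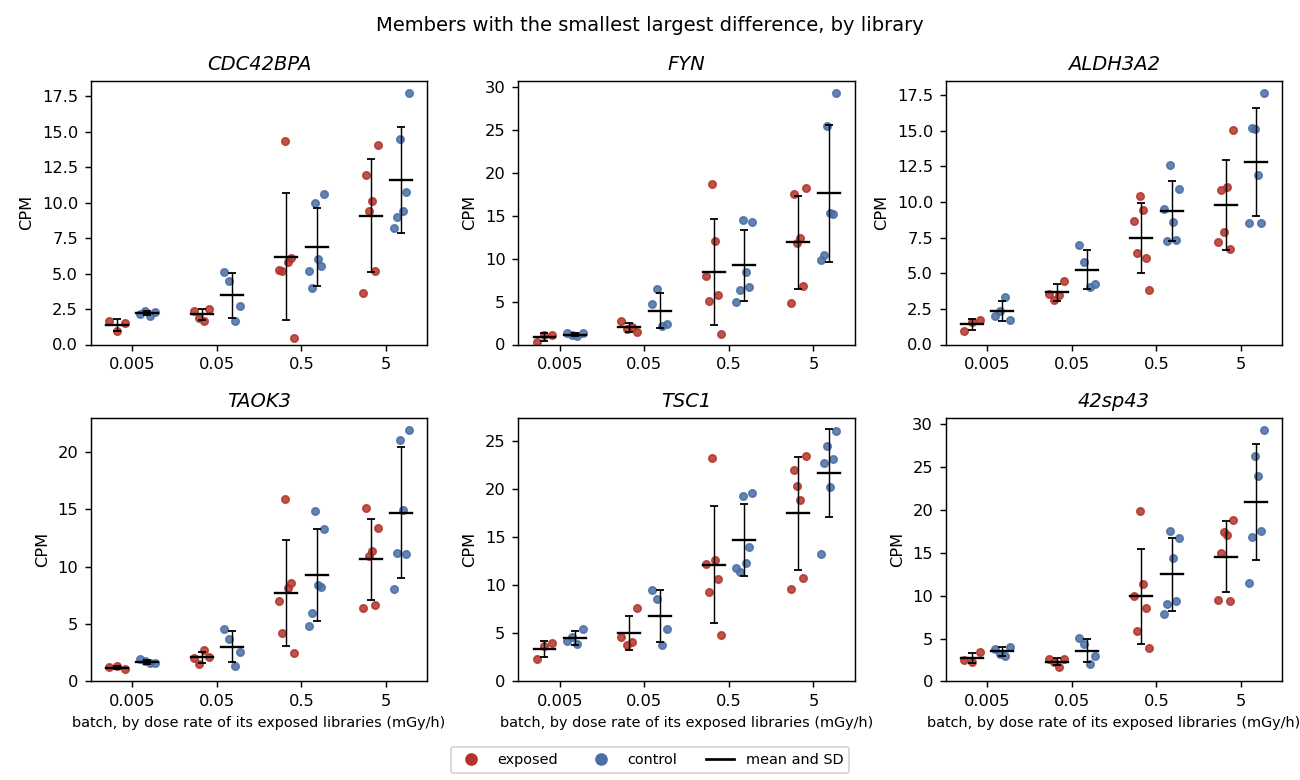
Level in CPM (vertical axes, from 0) of 6 members in each of the 39 libraries, by batch (horizontal axes, named by the dose rate of the exposed libraries), with exposed libraries left of controls, a bar at each group mean and its SD. TSC1 is the copy ENSDARG00000026048; exposed and control points overlap in most batches, and the levels are higher in the 0.5 and 5 mGy/h batches than in the other 2, in exposed and control libraries alike.

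The other 13 of the 25 named members were fgd4b, ADCY9, CRY1 (ENSDARG00000011583), ABHD18, TMEM135, KLHDC10, gemin6, SMCHD1, rnf114, GPHN (ENSDARG00000089076), MIPOL1, ME3 and cpeb4b. CRY1, a repressor of the circadian clock, differed by -0.26, -0.42, -0.52 and -0.68 from the lowest to the highest dose rate, and it was scarce in the 0.005 mGy/h batch (0.401, 0.704 and 0.776 CPM in exposed libraries, against 0.993, 0.89, 0.87 and 0.611 CPM in controls). The exchange factor gene fgd4b, whose product activates Cdc42, differed by -0.27, -0.49, -0.58 and -0.34. ADCY9, an adenylyl cyclase, differed by -0.48, -0.39, -0.27 and -0.46, but its largest difference became 0.0338 without exposed replicate 6 at 0.5 mGy/h. For gemin6, of the complex that assembles spliceosomal RNPs, the differences were -0.42, -0.24, -0.34 and -0.53. The cpeb4b gene, whose product binds the cytoplasmic polyadenylation element of stored mRNAs, differed by -0.39, -0.32, -0.23 and -0.41. These genes shared a sign and a modest size, and differed in which dose rate was lowest.

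**Figure D2:**
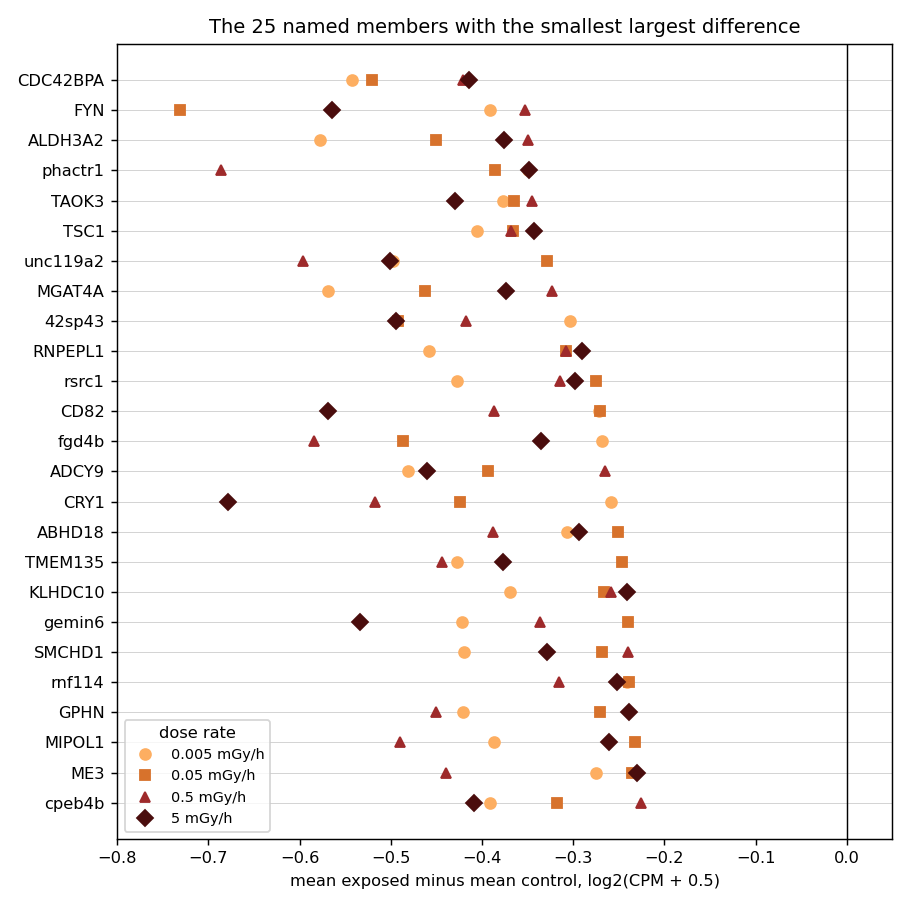
Mean exposed minus mean control level (horizontal axis, log2(CPM + 0.5)) of the 25 named members (rows, in order of rank from the top), with 1 symbol for each dose rate. TSC1 is the copy ENSDARG00000026048; all points lie left of 0 because the rule chose them so, the lowest being FYN at 0.05 mGy/h with -0.73, and the order of the 4 dose rates changes from gene to gene.

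The libraries of a group were not alike in these genes. Mean log2 level over the 150 members was 3.07 ± 0.08 (SD, n = 3) in exposed embryos against 3.46 ± 0.13 (SD, n = 4) in their controls in the 0.005 mGy/h batch, and 3.45 ± 0.19 (SD, n = 4) in exposed embryos against 3.70 ± 0.33 (SD, n = 4) in their controls in the 0.05 mGy/h batch. It was 3.96 ± 0.46 (SD, n = 6) in exposed embryos against 4.26 ± 0.18 (SD, n = 6) in their controls in the 0.5 mGy/h batch, and 4.33 ± 0.33 (SD, n = 6) in exposed embryos against 4.66 ± 0.26 (SD, n = 6) in their controls in the 5 mGy/h batch. In this mean every exposed library lay below every control in the 0.005 mGy/h batch, and the groups overlapped in the others. The control means also differed between batches, from 3.46 at 0.005 mGy/h to 4.66 at 5 mGy/h. The minimum of 5 CPM over all controls bears on this. In the 0.005 mGy/h batch 43 members had a control mean under 5 CPM, and in the 5 mGy/h batch 0 did. The batch levels are therefore a description and are not compared with the differences by exposure.

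At 0.05 mGy/h the member mean was 4.05 and 3.92 in control replicates 1 and 2 but 3.40 and 3.45 in control replicates 3 and 4, which lay within the range of the exposed libraries (3.34 to 3.73). Controls 1 and 2 were both above controls 3 and 4 in 126 of the 150 members (84.0%), against 48.0% of the other eligible genes. At 0.5 mGy/h exposed replicate 6 had a member mean of 3.23 and exposed replicate 3 one of 4.67, on either side of the controls (4.10 to 4.55). Replicate 6, the shallowest library of that group, was the lowest exposed library for 131 members (87.3%), against 34% of the other eligible genes, and replicate 3 the highest for 139 members (92.7%), against 34.9%. At 5 mGy/h exposed replicate 1 (3.85) and control replicate 1 (4.27) were the lowest of their groups. The study left 8 of the 39 libraries out of its own analysis. These were controls 3 and 4 at 0.05 mGy/h and exposed replicates 1 and 3 at 0.5 mGy/h. At 5 mGy/h they were exposed replicates 2 and 6 and controls 1 and 2. In the member mean, the controls left out were the lowest of their groups and the exposed libraries left out the highest. Leaving them out therefore widened the member differences in those batches. Exposed replicate 6 at 0.5 mGy/h was kept.

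Over the 31 libraries that the study kept, the 150 members were lower in all 4 batches, with medians of -0.36, -0.48, -0.45 and -0.60 from the lowest to the highest dose rate, against medians of -0.12, -0.11, -0.02 and -0.16 over the eligible genes. The rule applied to those 31 libraries took 83 of the 150. Without exposed replicate 6 at 0.5 mGy/h, 135 of the 150 members kept 4 negative differences and 88 stayed among the chosen, and without control replicate 1 at 0.05 mGy/h the counts were 143 and 87.

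**Figure D3:**
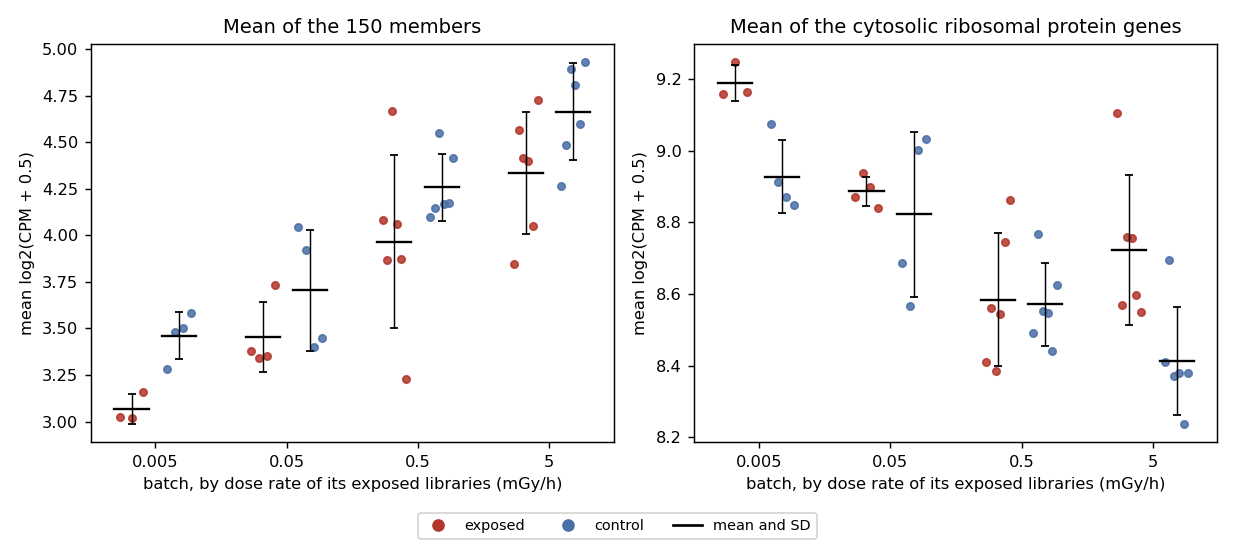
Mean log2(CPM + 0.5) per library (points) of the 150 members (left) and of the 82 eligible cytosolic ribosomal protein genes (right), by batch, with exposed libraries left of controls, a bar at each group mean and its SD. The member mean is lower in the exposed group of every batch, from 3.07 against 3.46 at 0.005 mGy/h to 4.33 against 4.66 at 5 mGy/h, and single libraries, such as the exposed one at 3.23 in the 0.5 mGy/h batch, lie far from their group.

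Ribosomal protein mRNAs were higher in exposed libraries of the 0.005 and 5 mGy/h batches and close to their controls in the others. Their part in the member differences was not tested. The mean log2 level of the 82 ribosomal protein genes was 9.19 ± 0.05 (SD, n = 3) in exposed embryos against 8.93 ± 0.10 (SD, n = 4) in their controls in the 0.005 mGy/h batch, and 8.72 ± 0.21 (SD, n = 6) in exposed embryos against 8.41 ± 0.15 (SD, n = 6) in their controls in the 5 mGy/h batch. In the 0.05 mGy/h batch it was 8.89 ± 0.04 (SD, n = 4) in exposed embryos against 8.82 ± 0.23 (SD, n = 4) in controls. In the 0.5 mGy/h batch it was 8.58 ± 0.19 (SD, n = 6) against 8.57 ± 0.11 (SD, n = 6), while the members were lower in both of these batches too. With TMM, which scales on the bulk of the genes, the median eligible gene moved to 0.00 in the 0.005 mGy/h batch and 0.04 in the 5 mGy/h batch. The median member then differed by -0.25, -0.20, -0.29 and -0.17 from the lowest to the highest dose rate. All 150 members kept 4 negative differences under TMM and all but 1 under DESeq2 size factors. All 150 lay below the median eligible gene in each batch under both. The rule had set every member difference at -0.15 or lower, below the median eligible gene of each batch. Rescaling moves all genes of a library nearly alike, so these counts were close to fixed in advance and are a description. Under TMM 882 eligible genes were lower and 609 higher in all 4 batches, against 1543 and 368 on gene totals.

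In edgeR's quasi-likelihood fit of each batch, with TMM and Benjamini-Hochberg adjustment over all genes tested, no member was called lower at 0.005 mGy/h or at 0.05 mGy/h, where 0% and 0.0116% of the eligible genes were (adjusted p under 0.05). Unadjusted p was under 0.05 for 31 members at 0.005 mGy/h and for 9 at 0.05 mGy/h, and DESeq2 called 1 and 0. At 0.5 mGy/h 7 members were called lower, against 2.86% of the eligible genes, and at 5 mGy/h 11 were, against 6.46%. No member was called higher at any dose rate. In a fit of exposure over all batches, with a term for batch, 14 members were called lower, against 0.488% of the eligible genes. Single libraries moved these counts, which stayed within 1.5 times of the value given in 4 of 12 fits with 1 library left out at 0.5 mGy/h, in 5 of 12 at 5 mGy/h and in 12 of 39 over all batches. At 0.5 mGy/h 44 members were called without exposed replicate 3 and 2 without exposed replicate 4, and at 5 mGy/h 2 without control replicate 3. Over all batches 44 were called without exposed replicate 3 at 0.5 mGy/h and 6 without exposed replicate 2 at 0.005 mGy/h, and over the 31 libraries the study kept the counts were 52 at 0.5 mGy/h, 81 at 5 mGy/h and 124 over all batches. The shares given belong to the edgeR fits of all libraries. None were counted for the other fits or for unadjusted p. Every one of these contrasts had a part in choosing the genes, so nothing is read from the counts.

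Exposed libraries all below control libraries were seen in the 0.005 mGy/h batch for 54 members, against 12.4% of the eligible genes, and in the 0.05 mGy/h batch for 2, against 0.279%. In the 0.5 mGy/h batch 1 member showed this, against 1.62%, and in the 5 mGy/h batch 6 did, against 2.05%. No member was free of overlap in more than 2 batches, 9 were in 2, 45 in 1 and 96 in none. The eligible genes were not counted in this way, and the same contrasts chose the members, so nothing is read from these counts. The 9 genes were CLINT1 (ENSDARG00000089914), HIF1AN, sec23a, klf5l, MSH3, TAX1BP1, FLOT1, MSI2 and mcm3l, several of them named here after their values were seen. HIF1AN, the asparagine hydroxylase that restrains hypoxia-inducible factor, and klf5l, a Kruppel-like transcription factor, were the 2 at 0.05 mGy/h.

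Among members of the lists, 8 of 267 eligible protein kinase and phosphatase genes were chosen (3.00%), against 150 of 8603 over all (1.74% by count). FYN, TAOK3, MAP3K7 and stk38l led them by rank, followed by TNIK, mark3a, NEK7 and ppp2r5cb. MAP3K7 (TAK1), a kinase of TGF-beta and innate immune signalling, differed by -0.45, -0.23, -0.23 and -0.36 from the lowest to the highest dose rate, and stk38l, of the NDR kinases of the Hippo pathway, by -0.36, -0.22, -0.30 and -0.30. NEK7, a mitotic kinase, had 33.2, 36.7 and 33.2 CPM in exposed libraries at 0.005 mGy/h, against 39.5, 53.5, 60.1 and 59.2 CPM in controls, and at 0.5 mGy/h its lowest, median and highest values were 35.3, 38.7 and 56.8 CPM in exposed libraries, against 54.9, 61.5 and 63.9 CPM in controls. A single exposed library at 0.5 mGy/h overlapped the controls of NEK7.

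From the small GTPases and their regulators 7 of 212 eligible genes were members: CDC42BPA, ASAP1, ARHGAP4, RAB5C, RAB6A, TBC1D30 and ARHGAP45. ASAP1, an activator of Arf GTP hydrolysis, differed by -0.35, -0.56, -0.20 and -0.24, and RAB5C, a GTPase of early endosomes, by -0.27, -0.21, -0.19 and -0.18. Most reads on ASAP1 (69.7%) lay on the opposite strand and were not counted in its level. In RAB5C the exposed libraries at 0.05 mGy/h held 19.8, 17.3, 19.1 and 19.6 CPM, against 26.1, 26.8, 18.6 and 17.9 CPM in controls, the same split of the controls as in CD82 and RNPEPL1.

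Membrane traffic gave 3 of 216 eligible genes, namely CLINT1, sec23a and VPS39. CLINT1, an adaptor of clathrin-coated vesicles at the trans-Golgi network, had 2.24, 2.85 and 3.25 CPM in exposed libraries at 0.005 mGy/h, all below the controls at 3.79, 3.75, 4.16 and 4.03 CPM. At 5 mGy/h its lowest, median and highest values were 3.84, 5.88 and 7.44 CPM in exposed libraries, against 7.45, 10.4 and 13.5 CPM in controls, so the groups only just failed to meet. Another gene of the secretory route, sec23a, whose product is a coat subunit of vesicles leaving the endoplasmic reticulum, had 66.7, 62.4 and 59.1 CPM in exposed libraries at 0.005 mGy/h, against 71.1, 95.6, 93.4 and 104 CPM in controls, and a lowest, median and highest value of 55, 70.5 and 79.6 CPM in exposed libraries, against 85.3, 93.4 and 116 CPM in controls, at 5 mGy/h. Neither batch of sec23a showed overlap. VPS39, of the HOPS tethering complex of late endosomes, differed by -0.55, -0.17, -0.37 and -0.42.

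Genes of RNA decay and translational control gave 4 of 97 eligible genes (4.12%), namely cpeb4b, CPEB1, MSI2 and dcp1a. On gene totals, 31 of the 97 were lower in all 4 batches (32%, against 17.9% of all eligible genes). This was not particular to the list: the share was 31.1% for small GTPases and their regulators and 26.2% for kinases and phosphatases. Over the lists it ran from 0% to 56.2%. Such shares include the members and use the differences that chose them, so they are a description. CPEB1, which holds stored mRNAs silent in oocytes and is on the maternal list too, had 5.86, 6.65, 8.96 and 12.7 CPM in exposed libraries at 0.05 mGy/h, against 15.2, 12.2, 6.77 and 6.58 CPM in controls. At 5 mGy/h its lowest, median and highest values were 23.5, 53.5 and 71 CPM in exposed libraries and 29.6, 54.5 and 108 CPM in controls, so that the medians lay side by side. MSI2, an RNA-binding regulator of translation, differed by -0.17, -0.18, -0.17 and -0.42, and dcp1a, an activator of mRNA decapping, by -0.25, -0.16, -0.22 and -0.15. DICER1, which cuts microRNA precursors and belongs to no list used here, was a member as well (-0.45, -0.23, -0.21 and -0.41) and was named after its values were seen.

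The list of maternal oocyte transcripts held 39 eligible genes, of which 3 were members (CPEB1, WEE2 and nanog) and 15 were lower in all 4 batches (38.5%). WEE2, an oocyte kinase that inhibits Cdk1, had 19.3, 18 and 20.3 CPM in exposed libraries at 0.005 mGy/h, against 20.2, 20.9, 23.8 and 23.4 CPM in controls, and differed by -0.20, -0.32, -0.21 and -0.24. Nanog, one of the maternal factors that start zygotic transcription, was among the most abundant members. Its exposed libraries held 98, 149 and 119 CPM at 0.005 mGy/h, against 103, 126, 159 and 165 CPM in controls, and its lowest, median and highest values at 5 mGy/h were 168, 292 and 342 CPM in exposed libraries, against 190, 328 and 388 CPM in controls. The groups of nanog overlapped widely. HOOK2, a motor adaptor on the germ plasm list, differed by -0.34, -0.21, -0.48 and -0.19, and 9 of 16 eligible germ plasm and germ cell genes were lower in all 4 batches (56.2%).

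Of replication and repair, ORC1 and WEE2 came from 79 eligible cell cycle genes, MSH3 from 28 of excision and mismatch repair and none from 47 of double strand break repair and checkpoint. MSH3, which recognizes loops in mismatch repair, had 3.64, 4.22 and 5.1 CPM in exposed libraries at 0.005 mGy/h, against 5.19, 8.01, 7.3 and 6.19 CPM in controls, and a lowest, median and highest value of 6.68, 9 and 10.6 CPM in exposed libraries, against 11.2, 12.7 and 14.5 CPM in controls, at 5 mGy/h. Both batches of MSH3 were free of overlap. The gene mcm3l, named for its likeness to the Mcm3 subunit of the replicative helicase, was the only member without overlap at 0.5 mGy/h. Its lowest, median and highest values there were 65.3, 77 and 84.3 CPM in exposed libraries, against 89.8, 93.4 and 102 CPM in controls. No member came from the 15 eligible p53 targets or the 17 apoptosis genes. With 150 of 8603 eligible genes chosen, these lists and that of double strand break repair can lack members by size alone. Nothing is read from it.

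ORC1, the large subunit of the complex that marks replication origins, stood at 0.287, 0.256 and 0.295 CPM in the exposed libraries at 0.005 mGy/h, against 0.221, 4.89, 6.62 and 6.43 CPM in controls, a difference of -2.26, the lowest of any member in any batch. At 0.05 mGy/h it had 0.7, 1.01, 1.1 and 5.2 CPM in exposed libraries, against 8.4, 2.83, 0.833 and 1.47 CPM in controls. Control replicate 1 at 0.005 mGy/h thus lay below all 3 exposed libraries, far from the other 3 controls. At 0.5 and 5 mGy/h all libraries lay between 3.18 and 10 CPM, and the differences were -0.18 and -0.16. More than 10% of the reads on the gene were on the opposite strand for ORC1 (19.3%), ASAP1 (69.7%) and TBP (17.0%), as for 1.85% of the eligible genes other than ribosomal protein genes.

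**Figure D4:**
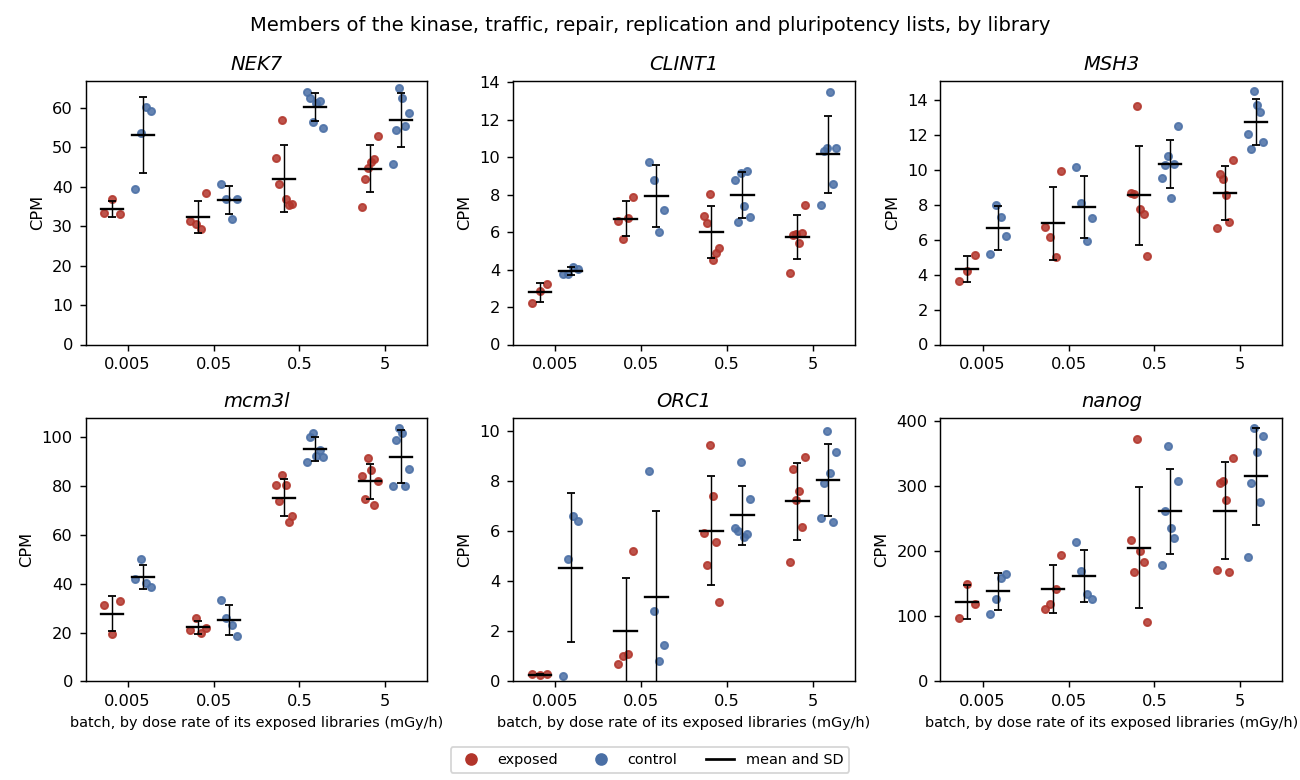
Level in CPM (vertical axes, from 0) of 6 members in each of the 39 libraries, by batch as named by dose rate, with exposed libraries left of controls, a bar at each group mean and its SD (bars that would pass 0 end there). CLINT1 is ENSDARG00000089914; exposed libraries of NEK7 and mcm3l are nearly all below the controls at 0.5 mGy/h, and ORC1 splits into libraries near 0.3 CPM and libraries of 4.89 CPM or more at 0.005 mGy/h.

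The remaining lists were represented by a few members each. Solute carriers and channels gave 6 of 209 eligible genes, led by SLC16A3, a lactate transporter (-0.36, -0.28, -0.35 and -0.21), SLC4A2, an anion exchanger (-0.32, -0.21, -0.31 and -0.18), ANO10 (-0.35, -0.18, -0.34 and -0.44) and SLC9A7 (-0.48, -0.18, -0.36 and -0.19). From the cytoskeleton came 5 of 183, among them TTLL7, a tubulin polyglutamylase (-0.34, -0.28, -0.22 and -0.34), EPB41L5 (-0.68, -0.17, -0.24 and -0.40), map2 (-0.32, -0.19, -0.22 and -0.17) and EZR, which ties actin to the plasma membrane (-0.51, -0.30, -0.17 and -0.55). Lipid metabolism gave 4 of 138: PI4K2B, pemt, PIP5K1C and ACAD9, of which pemt, the methyltransferase that makes phosphatidylcholine, differed most at 0.005 mGy/h (-0.57). Amino acid and sugar metabolism gave BCAT2, GOT2 and ahcyl2b of 116. All of these were lower at each dose rate by the rule, and their sizes lay in the range of the other members.

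Ubiquitin ligases and proteases gave 2 of 259 eligible genes, rnf114 (-0.24, -0.24, -0.32 and -0.25) and FBXW5 (-0.50, -0.22, -0.23 and -0.36), and histone modifiers and remodellers 2 of 160, SETD3 (-0.38, -0.34, -0.28 and -0.22) and CHD1L (-0.46, -0.16, -0.19 and -0.32). SETD3 is known to methylate actin rather than histones. The list of transcription factors by name held 5 members of 306 eligible genes, of which klf5l and IRX3 bind DNA as sequence-specific factors, while HIF1AN and NFKBIE are inhibitors of such factors and gtf3c2 belongs to the machinery of RNA polymerase III. TBP, the TATA-binding protein, differed by -0.16, -0.21, -0.20 and -0.16. Single members came from the chaperone list (BAG4), the splicing list (SRSF5) and the junction list (nectin3b).

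Several lists had no member. None of the 82 cytosolic ribosomal protein genes, 62 mitochondrial ribosomal protein genes, 92 genes of the respiratory complexes, 45 proteasome genes or 76 ribosome biogenesis genes was chosen. None came from the 23 eligible mesoderm and organizer genes, the 20 of BMP, 29 of Wnt, 18 of FGF, 12 of Nodal or 13 of Notch signalling, the 27 of the enveloping layer or the 18 of the yolk syncytial layer. With 150 of 8603 eligible genes chosen, lists of these sizes can hold few members or none by size alone. Nothing is read from the lack of members. In all, 58 of the 150 members belonged to at least 1 list apart from the clone-named genes, which gave 9 of 633.

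Level and variation within groups were not ranked by the rule, beyond its minimum of 5 CPM, but its choice bears on the variation. Differences between means of few libraries can be larger for genes that vary more or that move together in single libraries. The values that follow are therefore a description. The mean control level of the members was low, with a median of 16.1 CPM (range 5.05 to 250.4 CPM), against 27.5 CPM over the eligible genes, and together they held between 0.248% and 0.689% of a library's reads. Within groups, the SD of a member's log2 level had a median of 0.34, against 0.21 over the eligible genes other than ribosomal protein genes. Members that were high in a library were high together: over the 11175 pairs of members, deviations from the group mean had a median correlation of 0.64 across the 39 libraries (quartiles 0.45 and 0.78), and 98.8% of pairs were positive. Over all 37001503 pairs of eligible genes the median was 0.11 and 59.1% were positive. The points of these correlations share their libraries, depth and scaling, and they are a description.

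The deviations of the members followed the means of the germ plasm and maternal oocyte lists, to which 1 and 3 members belong. The same libraries chose the members, so these correlations are a description. Over the 15 germ plasm and germ cell genes that were no members, the median correlation of a member with the list mean was 0.78, against 0.17 for the other eligible genes, and all but 1 of the 150 members were positive. With the 36 maternal oocyte transcripts that were no members it was 0.66, against 0.00, and 148 were positive. The members ran opposite to the ribosomal protein genes (median -0.55, against -0.26), the respiratory complexes (-0.51, against -0.29), the yolk syncytial layer genes (-0.54, against 0.02), the mesoderm and organizer genes (-0.41, against 0.09) and the enveloping layer genes (-0.40, against 0.11). With the histone genes they did not stand out (-0.29, against -0.28). The part of these lists in the exposed and control levels of the members was not tested.

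**Figure D5:**
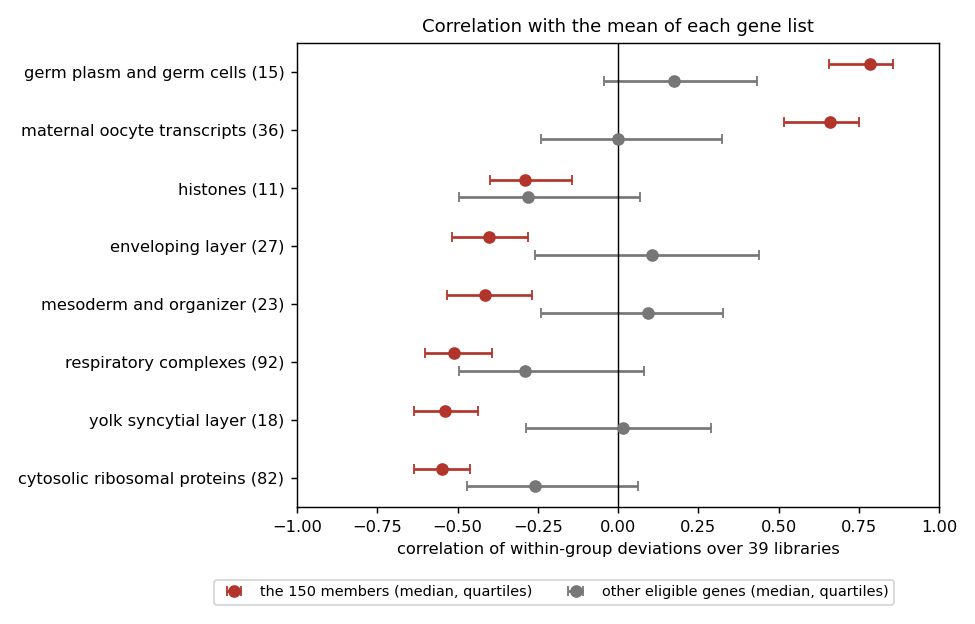
Correlation (horizontal axis) of within-group deviations over the 39 libraries between single genes and the mean of each gene list (rows, with the number of list genes that are no members), as median and quartiles for the 150 members (upper, red) and the other eligible genes (lower, grey). Members sit at 0.78 with the germ plasm list and 0.66 with the maternal oocyte list, and at -0.54 with the yolk syncytial layer list.

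Group by group, the germ plasm list mean was 3.84 ± 0.07 (SD, n = 3) in exposed embryos against 4.0 ± 0.05 (SD, n = 4) in their controls in the 0.005 mGy/h batch, 4.47 ± 0.07 (SD, n = 4) in exposed embryos against 4.60 ± 0.20 (SD, n = 4) in their controls in the 0.05 mGy/h batch, 4.52 ± 0.19 (SD, n = 6) in exposed embryos against 4.62 ± 0.14 (SD, n = 6) in their controls in the 0.5 mGy/h batch, and 4.73 ± 0.15 (SD, n = 6) in exposed embryos against 4.94 ± 0.16 (SD, n = 6) in their controls in the 5 mGy/h batch. The maternal oocyte list mean was 5.59 ± 0.07 (SD, n = 3) in exposed embryos against 5.67 ± 0.07 (SD, n = 4) in their controls in the 0.005 mGy/h batch, and 5.52 ± 0.10 (SD, n = 4) in exposed embryos against 5.57 ± 0.09 (SD, n = 4) in their controls in the 0.05 mGy/h batch. It was 5.75 ± 0.16 (SD, n = 6) in exposed embryos against 5.95 ± 0.13 (SD, n = 6) in their controls in the 0.5 mGy/h batch, its widest difference, and 5.91 ± 0.15 (SD, n = 6) in exposed embryos against 5.94 ± 0.14 (SD, n = 6) in their controls in the 5 mGy/h batch. Both lists were lower in the exposed group of every batch, by less than the members were. The median gene of the maternal list, members included, differed by -0.092, -0.022, -0.167 and -0.092 from the lowest to the highest dose rate. Over all eligible genes the medians were -0.123, -0.006, -0.003 and -0.090. At 0.005 mGy/h the maternal list thus fell by less than the median eligible gene, and at 5 mGy/h by about as much. Their part in the member differences was not tested.

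Levels between batches, averaged over the exposed and the control group mean, were a measure the rule made no direct use of. They differed between the 4 batches for 134 of the 150 members (edgeR F test over all batches, adjusted p under 0.01), a share close to the 93.4% of all eligible genes, so that a batch difference as such was not particular to the members. The control means of a member spanned a median of 1.16 on the log2 scale over the 4 batches (quartiles 0.72 and 1.79), against 0.79 over the other 8453 eligible genes. They were highest in the 5 mGy/h batch for 131 members (87.3%), against 47.8% of the others. In the 0.005 mGy/h batch they were lowest for 97 of the 150 members, against 4562 of the 8453 others. The minimum of 5 CPM over all 20 controls bears on this span and direction: 43 members had a control mean under 5 CPM in the 0.005 mGy/h batch, 23 in the 0.05 mGy/h batch, 2 in the 0.5 mGy/h batch and 0 in the 5 mGy/h batch, and passed through the controls of the batches where they were higher. The spans and their direction are therefore a description. Over the 150 members the largest span was that of si:ch211-147a11.3 (3.70), followed by FYN (3.34), CRY1 (3.203) and ADCY9 (3.03), while map2 (0.19), ches1 (0.28) and BRAF (0.30) had the smallest. These are differences between unexposed embryos of separate batches. The difference of exposed from control within a batch had a median of at most 0.36 in size. A span takes the extremes over 4 batches, so the measures are not alike and are not compared.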

How the data were processed

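RNA-seq libraries of mRNA selected with poly(dT) and prepared by a stranded protocol were aligned by the authors with STAR to GRCz11. They deposited counts of uniquely mapped reads per Ensembl gene for each library, as total, same-strand and opposite-strand columns. The column holding nearly all reads was used, and 1.65% to 2.09% of reads lay on the other strand. Summary lines were left out of library totals. Gene names came from a table of Ensembl IDs (28988 of 32057 matched), and 36 members share their symbol with another gene. IDs are given for some members only, and the rest are named by symbol alone. Coordinates of the build were not used here. The members and lists were chosen with earlier results of these data known, and the ribosomal and traffic patterns were narrowed after values were seen. Members named with values were the first 25 with a gene name (per-library values for the first 12) and members of symbol lists. Up to 4 of each family list and those at the limit were added. NEK7, mcm3l, DICER1 and the second copy of TSC1 were given values outside this rule. Fits used edgeR 4.0.16 (quasi-likelihood, filterByExpr, TMM, adjusted p under 0.05) in R 4.3.3, tested on simulated data, with DESeq2 1.42.0 as an alternative. Per the study's methods, eggs of different spawns were pooled before they were raised, so replicates may share clutches, and p-values measure the spread between these samples. Means, SDs and correlations were computed with pandas.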

Additional observations from a re-analysis of the deposited data

Results flagged for a closer look

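The member mean and the 12 genes with per-library values were each examined in every group of 4 to 6 libraries (groups of 3 were left out), 91 cases in all. In 3 cases a library lay far from the others. Chance alone sets apart about 1 case in 20 where cases are independent. These share their libraries, and the 12 genes are part of the member mean, so that share is no measure for the 3. The mean log2 level of the 150 members was 3.73 in exposed replicate 4 of the 0.05 mGy/h batch, where the other 3 exposed libraries lay between 3.34 and 3.38. In the same library MGAT4A stood at 7.71 CPM, against 4.72 to 5.07 CPM in the other 3. For rsrc1, control replicate 1 of the 0.005 mGy/h batch was low, at 22.9 CPM, while the other 3 controls held 38.6 to 40.9 CPM.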

How the results depend on the processing

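Which genes were chosen depended on the settings. Of the 150 members, 83 were chosen again over the 31 libraries kept by the study, 86 with TMM, 88 with DESeq2 size factors, 89 without the CPM minimum, 56 with a minimum of 20 CPM, 80 with group medians in place of means, 110 with a pseudocount of 5 and 142 with unstranded counts. Leaving out 1 library kept between 87 (control replicate 1 of the 0.05 mGy/h batch) and 141 of them, with 88 without exposed replicate 6 of the 0.5 mGy/h batch and 97 without exposed replicate 4 of the 0.05 mGy/h batch. The median member difference in the 0.005 mGy/h batch became -0.25 with TMM, -0.23 with DESeq2 size factors and -0.22 with a pseudocount of 5, and over the 31 libraries that in the 5 mGy/h batch became -0.60. With single libraries left out it ranged between -0.42 and -0.33 in the 0.005 mGy/h batch, -0.32 and -0.13 in the 0.05 mGy/h batch, -0.39 and -0.14 in the 0.5 mGy/h batch, and -0.39 and -0.21 in the 5 mGy/h batch.

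Counts of members called lower moved most. The share of the eligible genes was not counted in the alternative fits, so nothing is read from these counts. In the 0.005 mGy/h batch (0 called) DESeq2 called 1, a fit with no filter on low counts 1, and fits without 1 library between 0 and 4. In the 0.05 mGy/h batch every alternative gave 0. In the 0.5 mGy/h batch (7 called) 52 were called over the 31 libraries, 22 by DESeq2, 0 with a fold of 1.5 and adjusted p under 0.01, and between 2 and 44 without 1 library. In the 5 mGy/h batch (11 called) these were 81 over the 31 libraries, 14 by DESeq2, 0 with the stricter call, and between 2 and 16 without 1 library. Over all batches (14 called) they were 124 over the 31 libraries, 44 by DESeq2, 8 with no filter, and between 6 and 44 without 1 library. The count of members whose level differed between batches stayed between 129 and 138 with 1 library left out. The causes were not tested.

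Of 175 checks of the 25 named genes, 171 kept the sign of the largest difference and 4 turned it. Each of these 4 was without exposed replicate 6 of the 0.5 mGy/h batch. A check was an alternative setting, or the lowest or highest value with 1 library left out. The lowest such value could hardly turn a negative difference, so a part of the 171 was fixed in advance. With 1 library left out the largest difference ranged from -0.42 to 0.0598 for CDC42BPA, from -0.39 to 0.0505 for FYN, from -0.39 to 0.0338 for ADCY9 and from -0.26 to 0.00075 for KLHDC10.

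Same-numbered exposed and control libraries deviated from their group means with correlations between -0.241 and 0.234. Whether the numbers pair the samples is not stated. These correlations cannot decide it, since low values can arise with or without pairing. With the number as a replicate block, 23 members were called in the 0.005 mGy/h batch, 0 in the 0.05 mGy/h batch, 27 in the 0.5 mGy/h batch, 9 in the 5 mGy/h batch and 19 over all batches. No share of the eligible genes was counted in the block fits, and nothing is read from their counts. Low levels limit the values of many members, since 46 had a control mean under 10 CPM.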
